A study of Bos taurus with 12 samples.

Results

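The genes described here are 9 components of the basement membrane: the laminin alpha chain genes LAMA2, LAMA4 and LAMA5, the beta chain genes LAMB1 and LAMB2, the gamma chain gene LAMC1, the nidogen genes NID1 and NID2, and HSPG2, which encodes perlecan. They were selected by gene name, with no threshold on their values, from the 18436 genes of an expression table and from lists of RNA methylation peaks, and all 9 were in the table. The choice was made with earlier results of these data known. The cells were primary skeletal myoblasts isolated from the longissimus dorsi, a back muscle, of newborn Qinchuan cattle. The GM group was kept in growth medium with fetal bovine serum, and the DM group was moved to differentiation medium with horse serum for 4 days, in which myoblasts fuse into myotubes. Each group had 3 input libraries, which measure mRNA, and 3 libraries of RNA pulled down with an antibody against the RNA mark m6A (IP). The study's methods name 1 newborn animal as the source of the cells, so the p-values below measure the spread between cultures or preparations of those cells and not between animals.

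Laminins are the proteins from which a basement membrane is first built. Each is a trimer of 1 alpha, 1 beta and 1 gamma chain that is put together inside the cell, secreted and linked to other trimers at the cell surface, where it is held by integrins and by dystroglycan. Nidogens and perlecan tie the laminin sheet to the collagen IV network. Around a muscle fibre this sheet anchors the plasma membrane and encloses the satellite cells, and loss of the alpha chain encoded by LAMA2 causes a congenital muscular dystrophy.

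All 9 genes were expressed in both groups, and NID1 (higher in DM), LAMA5 (lower) and NID2 (higher) changed most. On the FPKM scale (fragments per kilobase of exon, scaled to the library's mapped fragments, which allows levels of genes of different length to be compared), NID2 was the most abundant gene of the set in both groups. In GM the order was NID2, LAMB1, NID1, HSPG2, LAMC1, LAMA4, LAMB2, LAMA5 and LAMA2, and only 2 neighbouring pairs had overlapping libraries, HSPG2 with LAMC1 and LAMA5 with LAMA2. In DM NID1 stood above LAMB1, LAMC1 above HSPG2 and LAMA2 above LAMA5, and no neighbours overlapped.

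Changes were tested with limma on log2(FPKM + 1) over the 12302 genes that averaged 0.5 FPKM or more, which included all 9, with Benjamini-Hochberg adjustment over all of them. At an adjusted p under 0.05, 6 of the 9 genes were higher in DM, against 16.1% of all tested genes, and 2 were lower, against 26.7%. With a fold change over 1.5 required as well, 2 were called higher (NID1 and NID2; 4.89% of all tested genes) and 1 lower (LAMA5; 6.88%). The 3 DM libraries lay above the 3 GM libraries for 7 genes, against 21.1% of tested genes, and below them for the other 2, LAMA5 and HSPG2, against 33.0%. The median log2 fold change was 0.30 for the 9 genes and -0.05 for all tested genes.

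Scaling of the libraries matters for the smaller of these changes. The summed FPKM of a library was 386437 to 390827 in DM and 415740 to 434458 in GM, and over all tested genes the median log2 fold change moved from -0.05 with FPKM as deposited to 0.00 after division by size factors and 0.06 after rescaling to TPM. Over all genes, the calls were 602 higher and 846 lower with FPKM and 960 higher and 769 lower with TPM. Bulk libraries cannot tell a change in the amount of an mRNA per cell from a change in the share of cells that make it.

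**Figure D1:**
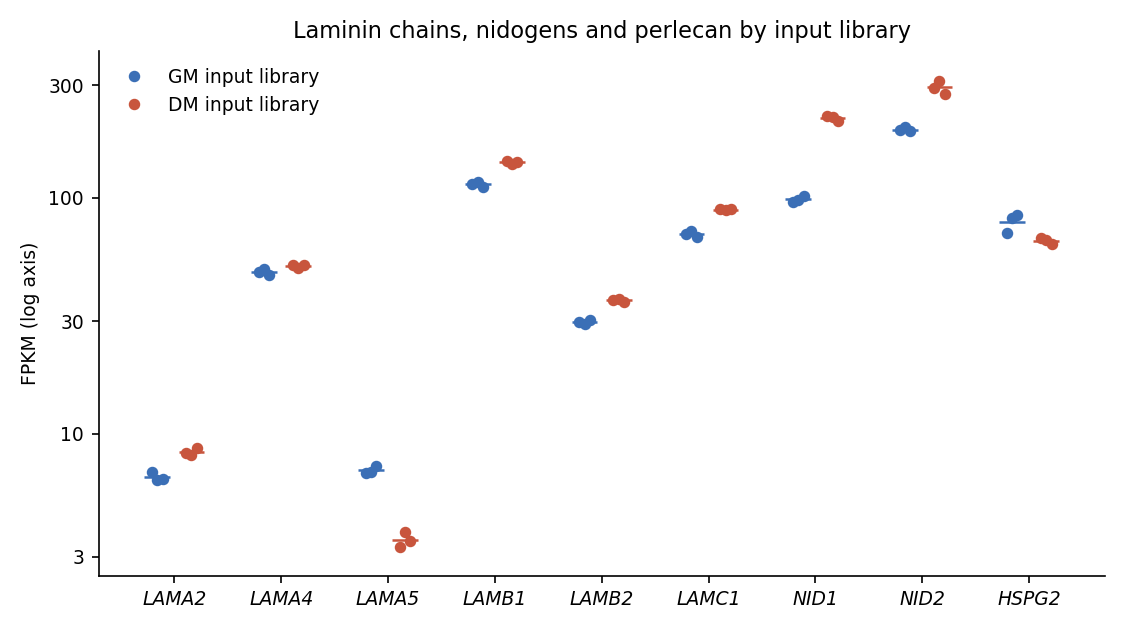
FPKM of the 9 genes (log axis) in each of the 3 GM and 3 DM input libraries. Points are libraries and horizontal lines are group means. NID1 and NID2 sit higher in DM and LAMA5 lower, while the LAMA4 libraries of the groups lie close together, at 47.2 to 49.9 in GM and 50.2 to 51.8 in DM.

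The alpha chains, which carry the binding sites for cell receptors, did not move together. LAMA4 (chromosome 9: 38176518-38331079, plus strand; all gene coordinates are ARS-UCD1.2), which encodes an alpha chain common around small vessels and in developing muscle, was by far the most abundant of them. Its FPKM was 48.4, 49.9 and 47.2 in the GM libraries and 51.8, 50.2 and 51.7 in the DM libraries. The groups did not overlap, yet the lowest DM library lay just above the highest GM library. The log2 fold change was 0.08 (95% interval -0.03 to 0.19) with a limma adjusted p of 0.21. It passed the adjusted threshold only after rescaling, at 0.14 with size factors (limma adjusted p = 0.03) and 0.20 with TPM (limma adjusted p = 0.019).

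LAMA2 (chromosome 9: 67153459-67556512, plus strand) encodes the alpha chain of the main laminin around mature muscle fibres. Its FPKM was 6.91, 6.37 and 6.45 in GM and 8.28, 8.12 and 8.69 in DM, so that every DM library was above every GM library. Expressed as means, LAMA2 rose from 6.58 ± 0.291 to 8.36 ± 0.296 FPKM (SD, n = 3 each), a log2 fold change of 0.31 (SE 0.059, limma adjusted p = 0.0038) that remained under 1.5-fold.

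LAMA5 (chromosome 13: 54887682-54938873, plus strand), whose alpha chain is widespread in embryonic tissue and in epithelial and vessel basement membranes, changed in the other direction. Its FPKM was 6.78, 6.86 and 7.32 in GM and 3.32, 3.83 and 3.49 in DM. The groups were far apart relative to their spread. LAMA5 fell by 0.81 on the log2 scale (95% interval of the difference -0.97 to -0.66, limma adjusted p = 4e-05) and was called lower under all 12 alternative settings, where the values ran from -0.96 to -0.76.

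The beta and gamma chains rose by similar amounts. LAMB1 (chromosome 4: 48985684-49062759, minus strand), the more abundant beta chain, measured 114.9, 117.0 and 111.5 FPKM in GM and 143.6, 139.4 and 141.4 in DM. LAMB2 (chromosome 22: 50883645-50897890, plus strand), whose product is concentrated at the neuromuscular junction in muscle, measured 29.6, 29.2 and 30.5 FPKM in GM and 37.0, 37.1 and 36.2 in DM. LAMC1 (chromosome 16: 64062643-64183738, plus strand), whose product is part of most laminins and holds the site that binds nidogen, measured 70.4, 72.1 and 68.1 FPKM in GM and 89.7, 88.6 and 89.2 in DM.

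None of these 3 genes had overlapping groups. The limma log2 fold changes were 0.30 for LAMB1 (95% interval 0.20 to 0.41, adjusted p = 0.00094), 0.30 for LAMB2 (0.19 to 0.40, adjusted p = 0.0012) and 0.34 for LAMC1 (0.24 to 0.44, adjusted p = 0.00052). Each kept an adjusted p under 0.05 in all 12 alternatives and none reached 1.5-fold in the fit as reported.

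The nidogens showed the largest rises of the set. NID1 (chromosome 28: 8687268-8784180, minus strand), the nidogen found in nearly all basement membranes, measured 96.3, 98.1 and 101.7 FPKM in GM and 222.3, 219.6 and 211.6 in DM. The lowest DM library was far above the highest GM library. NID1 rose from 98.7 ± 2.72 to 217.8 ± 5.57 FPKM (SD, n = 3 each), a ratio of means of 2.21, with a log2 fold change of 1.13 (95% interval 1.03 to 1.24, limma adjusted p = 1e-06) that was called in all 12 alternatives.

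NID2 (chromosome 10: 44846568-44939145, minus strand), the second nidogen of vertebrates, measured 193.0, 198.9 and 191.9 FPKM in GM and 293.0, 312.7 and 275.6 in DM. The groups were well separated, with a wider spread in DM than in GM. NID2 rose by 0.59 on the log2 scale (95% interval 0.46 to 0.72, limma adjusted p = 9.2e-05), which is just over the 1.5-fold limit. Without GM replicate 1, GM replicate 3 or DM replicate 2 the log2 fold change was 0.58, 0.58 and 0.54 and the gene was not called, although its limma adjusted p was at most 0.001 in every alternative. The 3′ end of NID2 lies 111 bases from that of RTRAF on the opposite strand, a gene that was lower in DM (286.3 to 247.8 FPKM, limma log2 fold change -0.21, adjusted p = 0.0096). The libraries were strand-specific, but the strand setting of the quantification was not given in the sources used here.

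HSPG2 (chromosome 2: 130906818-130976365, plus strand) encodes perlecan, a large heparan sulfate proteoglycan that binds nidogen, laminin and growth factors. It was the only linker that was lower in DM, at 70.7, 82.1 and 84.4 FPKM in GM and 67.7, 66.1 and 63.7 in DM. The groups did not overlap, but GM replicate 1 lay closer to the DM libraries than to the other GM libraries. The log2 fold change was -0.26 (95% interval -0.42 to -0.09, limma adjusted p = 0.02). The limma adjusted p was 0.067 with size factors, 0.16 with TPM, 0.066 without GM replicate 2, 0.051 without DM replicate 2 and 0.071 without DM replicate 3, so whether HSPG2 passed the adjusted threshold depended on scaling and on single libraries.

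**Figure D2:**
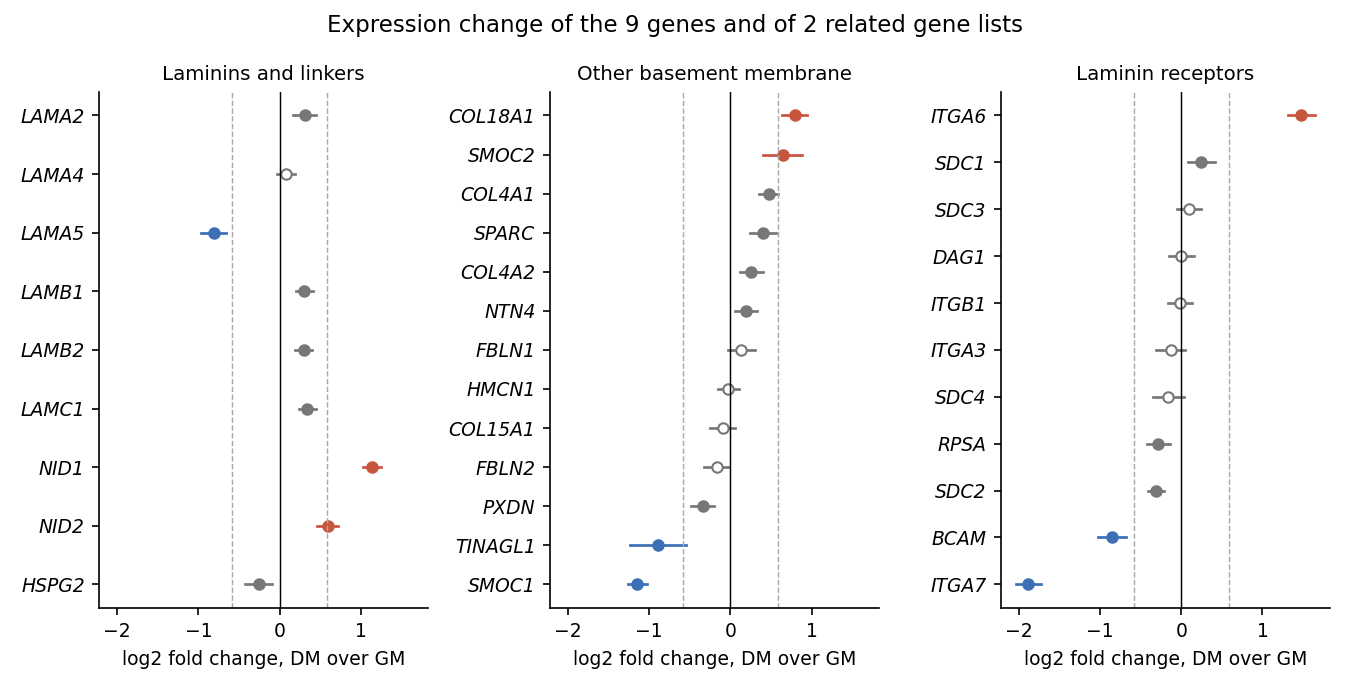
Log2 fold change of DM over GM with 95% intervals (limma on log2(FPKM + 1)) for the 9 genes and for the tested genes of the basement membrane and receptor lists. Filled points have an adjusted p under 0.05, coloured points are also over 1.5-fold (dashed lines), red higher and blue lower in DM. LAMB1, LAMB2, LAMC1 and LAMA2 lie together near 0.30, NID1 stands at 1.13, and ITGA6 and ITGA7 lie on opposite sides.

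Because a laminin holds 1 chain of each class, the share of each chain in the summed FPKM of its class was compared between the groups. These are shares of mRNA, and the laminin proteins and their assembly were not measured. LAMA4 made up 76.8% ± 0.61 of the alpha chain FPKM in GM and 79.8% ± 0.37 in DM, LAMA2 10.4% ± 0.52 and 13.0% ± 0.31, and LAMA5 11.1% ± 0.66 and 5.53% ± 0.49 (SD, n = 3 each). The alpha chain mRNA thus held more LAMA2 than LAMA5 in every DM library, where in GM the 2 genes had similar shares. For each of these 3 shares the libraries of the groups did not overlap and the two-sided exact permutation p was 0.1, the smallest that 3 against 3 libraries can give (0.275 after Benjamini-Hochberg adjustment over 11 shares).

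The beta chain mRNA showed no such shift. LAMB2 took 20.5%, 20.0% and 21.4% of the beta chain FPKM in GM and 20.4%, 21.0% and 20.3% in DM. The groups overlapped fully, with a difference of means of -0.03 percentage points (two-sided exact permutation p = 0.9), whose sign turned without some libraries. LAMC1 made up at least 99.7% of the gamma chain FPKM in every library.

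The summed alpha chain FPKM was 63.1 ± 1.3 in GM and 64.2 ± 1.0 in DM, while the beta sum went from 144.0 ± 2.1 to 179.0 ± 2.2 and the gamma sum from 70.4 ± 2.1 to 89.3 ± 0.55 (SD, n = 3 each). Relative to LAMC1, the summed alpha chains stood at 0.896, 0.892 and 0.908 in GM and at 0.721, 0.711 and 0.728 in DM. All DM ratios were below all GM ratios. LAMA4 relative to LAMC1 went from 0.69 ± 0.0031 to 0.575 ± 0.007 and LAMA5 from 0.0996 ± 0.0069 to 0.0398 ± 0.0031. The ratio of LAMA2 to LAMC1 was 0.0937 ± 0.0049 in GM and 0.0938 ± 0.0032 in DM (two-sided exact permutation p = 1.0).

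The linkers diverged against the same gene. NID1 stood at 1.37, 1.36 and 1.49 times the LAMC1 level in GM and at 2.48, 2.48 and 2.37 times in DM, and NID2 at 2.74, 2.76 and 2.82 times and 3.27, 3.53 and 3.09 times. Both nidogens were higher relative to LAMC1 in every DM library. HSPG2 went the other way, from 1.00, 1.14 and 1.24 times to 0.755, 0.746 and 0.714 times. NID1 relative to NID2 had ratios of 0.499, 0.494 and 0.53 in GM and 0.759, 0.702 and 0.768 in DM. For NID1, NID2 and HSPG2 against LAMC1 and for NID1 against NID2, the two-sided exact permutation p was 0.1, the smallest possible here (0.133 after Benjamini-Hochberg adjustment over 12 ratios). These ratios do not depend on library scaling.

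**Figure D3:**
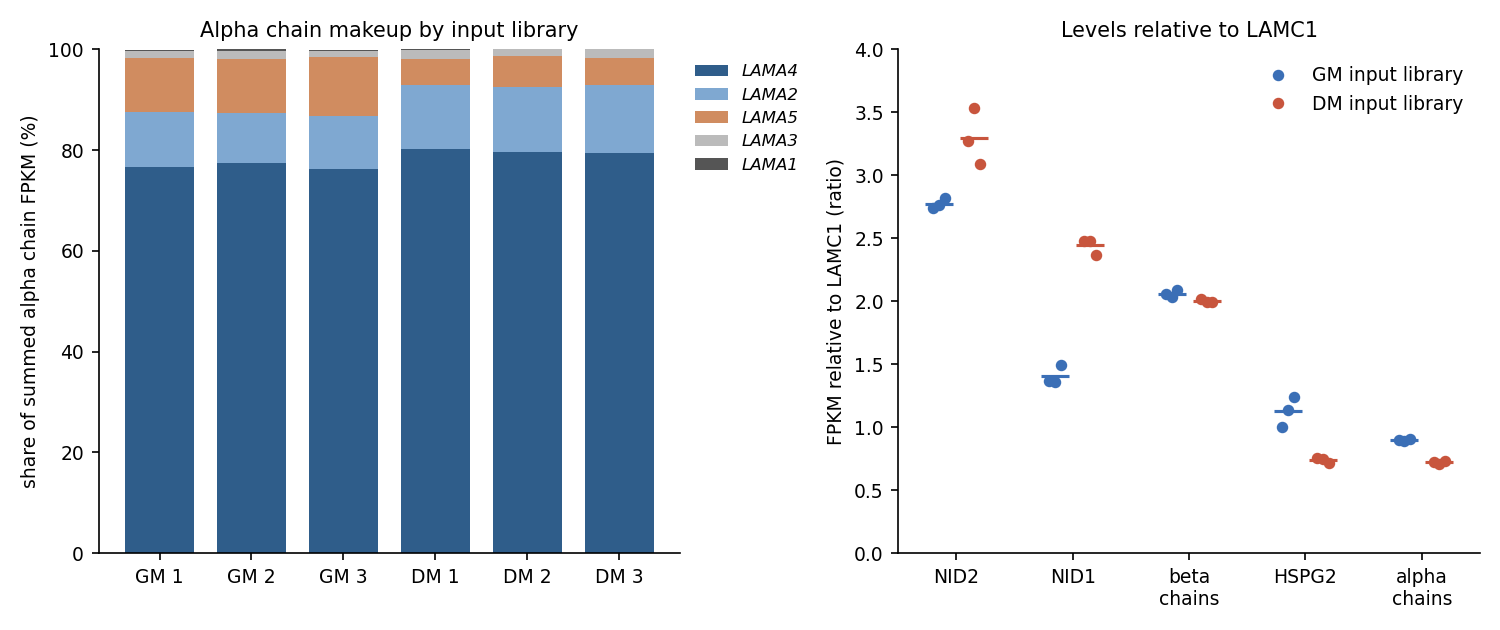
Left, share of each alpha chain gene in the summed alpha chain FPKM (%) of each input library. Right, FPKM relative to LAMC1 for the nidogens, the summed beta chains, HSPG2 and the summed alpha chains, with libraries as points and group means as lines. The LAMA5 share is 10.7% to 11.8% in GM and 5.14% to 6.08% in DM, and NID1 lies below the summed beta chains in GM and above them in DM.

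Other laminin chains were scarce. LAMA3, a chain of epithelial laminins, had a mean of 0.895 FPKM in GM and 1.02 in DM with overlapping groups (limma adjusted p = 0.48). LAMA1, LAMB3 and LAMC3 were below 0.5 FPKM in all 6 input libraries, and LAMB4 was not in the table. LAMA3 was thus the only chain of this list that was tested, and it was not called. LAMA1, untested at this level, was at 0.119 to 0.26 FPKM in GM and 0.0226 to 0.0463 in DM, without overlap of the groups.

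Of 18 other basement membrane genes, 16 were in the table and 13 were tested, with a median log2 fold change of 0.13. At the adjusted threshold of limma 6 were higher, against 16.1% of all tested genes, and 3 lower, against 26.7%. With the fold limit, COL18A1 (collagen XVIII) and SMOC2 were called higher, and SMOC1 and TINAGL1 lower. COL18A1 measured 5.74, 5.74 and 6.17 FPKM in GM and 11.7, 10.8 and 10.3 in DM (limma log2 fold change 0.79, adjusted p = 4.1e-05). SMOC1 and SMOC2, a pair of related calcium-binding matrix proteins, moved in opposite directions, SMOC1 from 36.3 to 15.9 FPKM (-1.15, limma adjusted p = 1.6e-06) and SMOC2 from 0.958 to 2.07 FPKM (0.64, limma adjusted p = 0.0016). SMOC2 was not called without DM replicate 2 (0.53). TINAGL1 went from 39.4 ± 6.93 to 20.7 ± 3.39 FPKM (SD, n = 3 each).

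The most abundant genes of that list were SPARC, a collagen-binding matrix protein, at 9438 ± 284 FPKM in GM and 12460 ± 682 in DM (limma adjusted p = 0.0023), and FBLN2, a fibulin, at 522.2 ± 43 and 464.3 ± 12.8 (limma adjusted p = 0.077; SD, n = 3 each). The collagen IV genes that form the network joined by nidogen were singled out after their values were seen. COL4A1 measured 182.6, 198.2 and 188.8 FPKM in GM and 271.3, 258.4 and 259.6 in DM (limma log2 fold change 0.47, adjusted p = 0.00017), and COL4A2 had a log2 fold change of 0.26 (limma adjusted p = 0.011). Both rose, by less than 1.5-fold, as LAMB1, LAMB2 and LAMC1 did. AGRN, which encodes agrin, was below 0.5 FPKM in every library.

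Among 12 laminin receptor genes, 11 were tested, with a median log2 fold change of -0.13. At the limma adjusted threshold 2 were higher, against 16.1% of all tested genes, and 4 lower, against 26.7%. Of the integrin alpha chains in the list, ITGA3 was the most abundant in every library. It measured 40.8 FPKM in GM and 37.3 in DM with overlapping groups (limma log2 fold change -0.13, adjusted p = 0.21). ITGA3 was singled out after its values were seen. ITGA6 and ITGA7 moved in opposite directions. ITGA6 measured 6.36, 6.69 and 5.84 FPKM in GM and 18.9, 20.9 and 18.1 in DM, and ITGA7, the laminin-binding integrin chain typical of skeletal muscle, measured 21.6, 21.8 and 21.7 in GM and 5.69, 4.79 and 5.00 in DM. Thus ITGA7 was the higher of these in each GM library and ITGA6 in each DM library. ITGA6 rose by 1.48 on the log2 scale (95% interval 1.31 to 1.64, limma adjusted p = 2.3e-06) and ITGA7 fell by 1.88 (-2.04 to -1.73, limma adjusted p = 4.5e-07).

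BCAM, a surface receptor for laminins that contain the LAMA5 chain, was the remaining gene called. It measured 23.1, 24.6 and 25.9 FPKM in GM and 14.5, 12.5 and 12.5 in DM (limma log2 fold change -0.85, adjusted p = 4.5e-05), lower in DM as LAMA5 was. ITGB1, the beta chain that pairs with these integrin alpha chains, measured 558.9 ± 34.2 FPKM in GM and 554.1 ± 29.3 in DM (limma log2 fold change -0.01, 95% interval -0.16 to 0.14), with a sign that flips under size factors, TPM and without some libraries. DAG1, which encodes dystroglycan and was singled out after its values were seen, measured 31.4 ± 1.93 and 31.5 ± 2.24 FPKM (0.00, -0.16 to 0.16). RPSA, a ribosomal protein also described as a laminin receptor, was among the lower genes (790.7 to 647.9 FPKM, limma adjusted p = 0.0069). Many processed copies of RPSA exist in mammalian genomes, and their part in its value was not tested.

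Dystroglycan binds laminin through a sugar chain, and 11 of 13 genes for the enzymes that build it were tested. None was called with the fold limit, and the median log2 fold change was -0.02. B3GALNT2 (-0.20, limma adjusted p = 0.0088) and B4GAT1 (-0.39, limma adjusted p = 0.0041) were lower at the adjusted threshold, B4GAT1 being singled out after its values were seen. B3GALNT2 and POMGNT1, at 41.6 and 16.5 FPKM in GM, were the most abundant of the list, and the change of POMGNT1 was 0.04 (limma adjusted p = 0.62).

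The state of the cultures was read from marker lists. Of 6 myoblast markers, 5 were lower in DM at the limma adjusted threshold, against 26.7% of all tested genes. With the fold limit 4 of them were called lower (MYF5, MYOD1, PAX7 and MSTN), against 6.88%. DES, the most abundant, was at 453.4 FPKM in GM and 488.5 in DM (limma adjusted p = 0.092). Of 8 myotube genes, 5 were called higher (CKM, TNNT3, MYH3, TNNC2 and MYLPF), against 4.89% of all tested genes. CKM, muscle creatine kinase, was at 10.2 ± 1.41 FPKM in GM and 42.5 ± 2.55 in DM (SD, n = 3 each). ACTA1, named after its values were seen, was called lower (110.2 to 69.96 FPKM, log2 fold change -0.64, limma adjusted p = 0.011). Whether its reads are shared with closely similar actin genes was not tested. MYH3 was already at 273.0 ± 2.74 FPKM in GM, against 659.3 in DM, so the GM cultures held transcripts of differentiated muscle.

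Laminins and nidogens are also made by fibroblasts, endothelial cells and epithelia. All 7 fibroblast markers were present in both groups, with a summed level of 10300 to 10400 FPKM in GM and 11600 to 12200 in DM. None was called over 1.5-fold. At the limma adjusted threshold 3 were higher (DCN, PDGFRA and COL3A1), against 16.1% of all tested genes, and 1 lower (TCF21), against 26.7%. COL1A1 and COL3A1, the collagen genes that made up most of the sum, had log2 fold changes of 0.13 (limma adjusted p = 0.12) and 0.39 (limma adjusted p = 0.0013). The part of fibroblasts in the rise of LAMA2, LAMB1, LAMB2, LAMC1 and the nidogens was not tested.

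Of 7 endothelial markers, 5 were in the table and each was below 0.5 FPKM in all 6 input libraries, PECAM1, CDH5 and VWF among them, with a sum of 0.672 to 0.874 FPKM in GM and 0.449 to 0.827 in DM. Of 5 epithelial markers, EPCAM, KRT8 and KRT18 were below 0.5 FPKM in all libraries, KRT5 was not in the table, and CDH1 was called higher (8.86 to 15.4 FPKM, limma adjusted p = 7e-05). The pericyte and smooth muscle list summed to 32.7 to 35.1 FPKM in GM and 39.9 to 41.8 in DM, with CSPG4 called higher (0.75), NOTCH3 called lower (-0.75) and PDGFRB higher under 1.5-fold (0.24), and KCNJ8 was below 0.5 FPKM throughout. Their part in the laminin values was not tested. Of the Schwann cell markers S100B was at 10.4 FPKM in GM and 9.75 in DM, and of the leukocyte markers CD68 alone was above 0.5 FPKM (1.17 and 1.46).

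The second readout was m6A, a methyl mark on adenosine in mRNA that is read by proteins that affect the stability and translation of the transcript. The deposited lists held 19739 peak entries for GM and 20790 for DM, with 1 pooled fold enrichment of IP over input per peak and thus no error and no test. Of the 9 genes, 6 had peaks in GM (11 entries) and 7 in DM (13 entries). LAMA5 and HSPG2 had no listed peak in either group, and NID2 had one in DM only.

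Among the 7 genes that averaged 10 FPKM or more, 5 had a peak in GM, against 70.2% of all genes at that level, and 6 in DM, against 79.9%. Of the 2 genes between 0.5 and 10 FPKM, LAMA2 had peaks in both lists and LAMA5 in neither, where 71.4% and 77.7% of genes at that level had one in the GM and DM lists. HSPG2 was thus without a listed peak at 65.8 to 79.1 FPKM. Of the entries, 6 of 11 in GM and 8 of 13 in DM were annotated to the 3′ untranslated region, against 42.6% and 45.3% of all entries, and the rest to exons. Only 4 entries in each list were above the list's median fold enrichment of 3.27 in GM and 3.38 in DM.

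The strongest marks were on LAMB2 and LAMC1. The LAMB2 peak reached the 3′ end of the gene through 7 exon blocks and 1314 exon bases in GM (chr22:50895816-50897890) and through 6 blocks and 1225 bases in DM (chr22:50895982-50897890). Its fold enrichment was 14.6 in GM, at the 97.0th percentile of the GM list, and 7.74 in DM, at the 85.3rd percentile of the DM list. The ratio of 0.53 was the only change over 1.5-fold among the 8 peaks of the 9 genes that could be paired between the lists, and 5.62% of the 10239 pairs of all genes had a ratio at or below it. Among all pairs, 14.2% were over 1.5-fold higher in DM and 10.8% over 1.5-fold lower. The LAMB2 change was not over 2-fold. Fold enrichment has the input in its denominator, and the LAMB2 input level was 1.23 times higher in DM. The part of the input level in the LAMB2 change was not tested.

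The LAMC1 peak covered 10 exon blocks (2096 bases in GM, chr16:64168083-64181703, and 2216 in DM, chr16:64168083-64181823), so that it reached far upstream of the 3′ untranslated region to which it was annotated. Its longest block, of 997 bases in GM and 1117 in DM, was the one nearest the 3′ end. Its fold enrichment was 6.39 in GM and 5.66 in DM, a ratio of 0.886. LAMC1 had a further peak in each list with no counterpart, a peak of 61 bases in exon 1 of 28 in GM (1.91) and a peak of 270 bases ending 30 bases before the 3′ end in DM (2.21).

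LAMB1 had a 3′ peak that was narrow in GM and extended in DM. In GM a peak of 300 bases at the 3′ end (chr4:48985684-48985983, fold enrichment 4.04) was separate from a weaker peak around exon 30 of 34 (1.45). In DM a single peak of 928 exon bases in 5 blocks overlapped both (chr4:48985684-48990984, 4.93), so these were not paired. A further GM peak, around exon 28, had a counterpart in DM (1.48 and 1.5).

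LAMA4 carried a peak next to its 3′ end with a fold enrichment of 3.36 in GM (chr9:38330690-38331019) and 3.51 in DM (chr9:38330690-38331079), and a weak one at exon 10 of 38 (1.28 and 1.19). LAMA2 had a peak from exon 35 of 41 onward at 2.17 in GM and 2.12 in DM. A further LAMA2 entry in DM, at exon 40, had a fold enrichment of 1.16 and a log10 false discovery rate of -0.853, and was the only entry of the 9 genes lost at a false discovery rate under 0.001.

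The NID1 peaks all lay in the 3′ untranslated region. The pair 1649 bases (GM) and 1709 bases (DM) from the 3′ end had a fold enrichment of 2.13 and 1.75, and the pair nearer the 3′ end 1.67 and 2.13, where the peak covered 181 bases in GM and 601 in DM. The neighbouring peaks thus moved in opposite directions by less than 1.5-fold, while the NID1 transcript itself rose. A further NID1 peak, 60 bases from the 3′ end, was in the DM list only (1.5). The single NID2 peak, in DM, was at exon 3 of 21 (chr10:44921511-44928753, 1.86), far from the 3′ end.

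**Figure D4:**
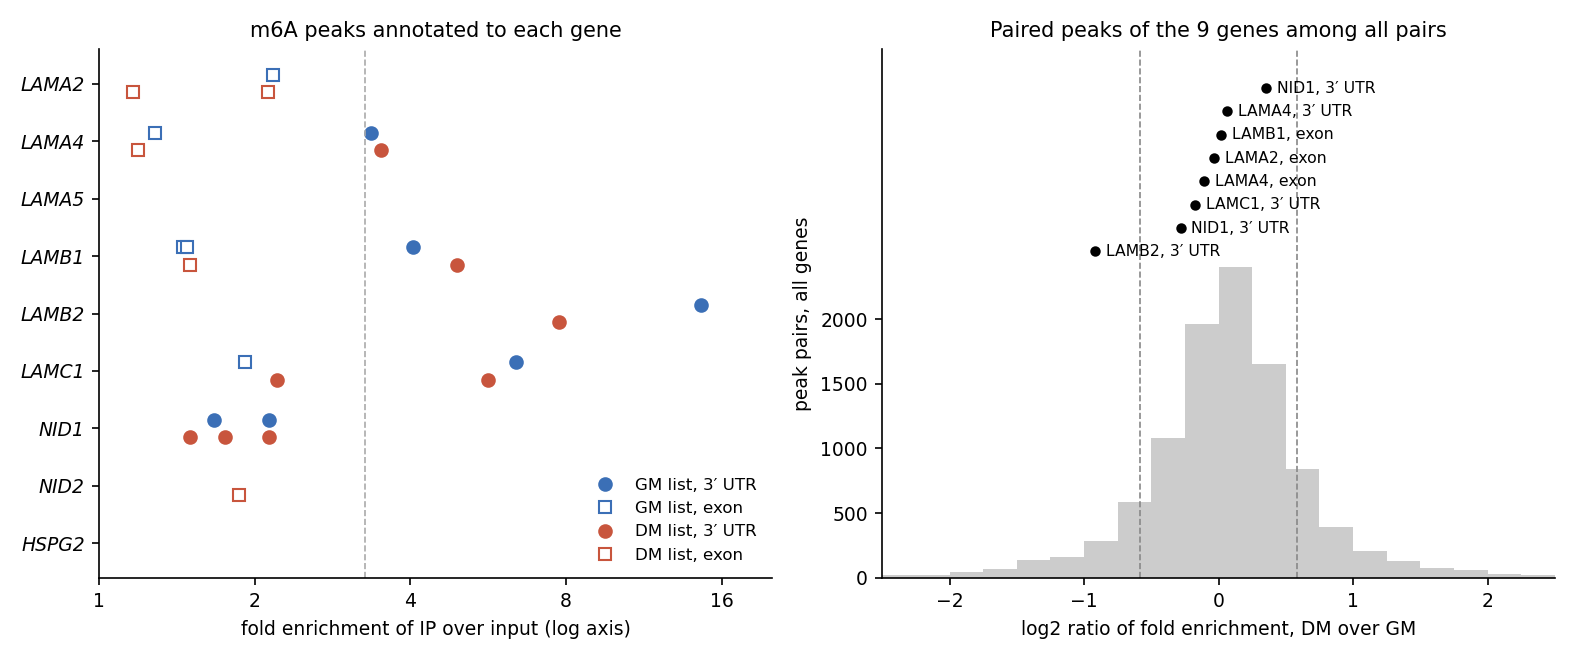
Left, fold enrichment of IP over input (log axis) of every listed m6A peak of the 9 genes in GM (blue) and DM (red), with filled circles for the 3′ untranslated region, open squares for exons and a dashed line at the GM list's median of 3.27. Right, the log2 ratio of fold enrichment, DM over GM, of the 8 paired peaks (black points, raised above the bars for reading) over the histogram of all pairs, with dashed lines at 1.5-fold. LAMB2 is the only pair outside the lines.

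Peaks of the receptor genes were paired in the same way. Of 11 pairs in the laminin receptor list, 2 were over 1.5-fold higher in DM (ITGA6 and SDC3), against 14.2% of all pairs, and 4 lower (SDC2, RPSA, DAG1 and ITGA7), against 10.8%, and the difference from the 9 genes was not tested. The ITGA6 peak in the 3′ untranslated region went from 3.02 to 12.8 and the ITGA7 peak from 3.45 to 1.42, and in both genes the fold enrichment and the FPKM moved the same way. The DAG1 peak, in the 5′ untranslated region, went from 4.36 to 1.92 with a FPKM that barely differed. Of 20 pairs in the other basement membrane genes, only that of COL18A1 changed over 1.5-fold (3.6 to 1.75), against its rise in FPKM, and none of 5 pairs in the dystroglycan glycosylation genes did.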

How the data were processed

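Poly(A) RNA of the 3 GM and 3 DM samples was fragmented, and strand-specific input and m6A-IP libraries were sequenced. The authors aligned reads to ARS-UCD1.2 with HISAT2 and deposited gene FPKM from StringTie for the 6 input libraries. The authors called peaks with exomePeak on each group, and deposited 1 list per group, in which each peak has a fold enrichment of IP over input, a log10 p-value and a log10 false discovery rate, used as a score, and a ChIPseeker annotation. The submitters' processing notes also name cutadapt, fastp and HOMER, while the study's methods name Trimmomatic, and versions were not given in the sources used here. The peak caller may place several exons in 1 peak, and fold enrichment depends on the input level. The study states the reads per library, but the files analysed give no read counts per gene or peak, so no counting error could be computed and precision rests on the spread of 3 libraries.

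All genes averaging 0.5 FPKM or more entered a limma fit (version 3.58.1, R 4.3.3) of log2(FPKM + 1) with a variance trend, which was tested on simulated data. Fold changes on this scale understate those of low genes. Genes were called at a Benjamini-Hochberg adjusted p under 0.05 over all tested genes and a fold over 1.5. The study used a count test at an unadjusted p, for which no count table was used here. Shares and ratios were compared with two-sided exact permutation tests. A pair of peaks is exactly 1 GM and 1 DM peak sharing 1 base or more of exon blocks and the strand, and an m6A change is a ratio over 1.5. Of the DM peak entries, 2 were exact repeats and stayed in. Tables and permutation tests were handled in pandas 2.3.3 and numpy 2.4.6 under Python 3.11.15, with scipy 1.17.1 also loaded and matplotlib 3.10.9 for figures.

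The 9 genes and the lists were chosen with earlier results of these data known. Named genes are the 9, up to 4 called genes with the largest change and the 2 most abundant of each list, and the gene whose log2(FPKM + 1) correlates best with each of the 9, which was not refitted under the alternatives. The other genes named (COL4A1, COL4A2, AGRN, ITGA3, DAG1, SDC2, SDC3, B4GAT1, ACTA1, DCN, PDGFRA, TCF21, RTRAF and markers under 0.5 FPKM) were chosen after their values were seen. Some genes of the lists are not reported here. The alternatives were a pseudocount of 0.1, no FPKM filter, scaling by size factors or to TPM, the replicate number as a block, no variance trend, an unadjusted p, a fold of 2, each library left out, stricter peaks and the overlap of peaks. Replicate numbers were checked for pairing, and deviations of same-numbered GM and DM libraries correlated at -0.0792, -0.123 and -0.208. Same-numbered libraries thus showed no shared deviation. With 3 libraries per group, each centred on the group mean, this check cannot settle whether the numbers pair the samples. No sequence of the files' build was used here.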

Additional observations from a re-analysis of the deposited data

How the results depend on the processing

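With a fold over 2 in place of 1.5, 1 of the 9 genes was called (1 higher, NID1, and 0 lower), and 504 of all genes (232 higher and 272 lower). Leaving out 1 input library at a time gave 1 to 2 of the 9 genes called higher, since NID2 lay at the fold limit. TPM gave 960 genes called higher. With the replicate block, 1459 genes were called (603 higher and 856 lower) and 3 of the 9 genes, and it changed no call among the 41 genes refitted under every alternative (the 9 and those named from the lists by rule). At a fold enrichment of at least 2, 6 GM and 7 DM peaks of the 9 genes remained. At a ratio over 2, 0 of their pairs were lower in DM. The difference in the LAMB2 share ran from -0.355 to 0.365 percentage points with 1 library left out. The log2 fold change of ITGB1 was 0.052 with size factors, 0.113 with TPM and -0.063 to 0.029 with 1 library left out, and that of S100B was 0.029 with TPM. Over these 41 genes and 12 alternatives, 482 of 492 values kept their direction and their call, which needs both the adjusted p and the fold limit. Of the rest, 4 (3 of NID2 and 1 of SMOC2) no longer passed the fold limit and 6 turned sign. At the adjusted p alone, HSPG2 passed in 7 of 12 alternatives and LAMA4 in 2. Some list genes also crossed the adjusted threshold alone. For example, B3GALNT2 did not pass with TPM (limma adjusted p = 0.3), nor SPARC without the FPKM filter (limma adjusted p = 0.12). DES and COL1A1 passed with TPM (limma adjusted p = 0.0032 and 0.0038). The causes were not tested. Counting error could not be computed without counts per gene, peaks had no replicate values, and 3 libraries from 1 animal limit every comparison.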

Other observations

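For each of the 9 genes, the gene with the most similar log2(FPKM + 1) over the 6 input libraries was found, as a description in which all points share the same libraries and the same split into groups. The Pearson r was 0.9989 for LAMA2 with ME3, 0.9978 for LAMA4 with TDRD3, 0.9993 for LAMA5 with HDDC2, 0.9998 for LAMB1 with JPH1, 0.9994 for LAMB2 with FAM20C, 0.9993 for LAMC1 with REV3L, 0.9996 for NID1 with C1R, 0.9998 for NID2 with MYO16 and 0.9977 for HSPG2 with DYNC1H1. The number of genes with an r over 0.95 was 76 for HSPG2 and 183 for LAMA4, which also had the smallest log2 fold changes of the 9, and 570 to 1426 for the other genes.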
